A study of Mus musculus with 9 samples.

Results

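The unfolded protein response is the programme by which a cell adjusts the folding capacity of its endoplasmic reticulum (ER). Its genes were followed here in whole mouse pancreas at E15.5, with 10 genes taken by symbol (Xbp1, Hspa5, Herpud1, Atf4, Ddit3, Dnajb9, Sdf2l1, Pdia4, Hsp90b1 and Creld2) from the 23235 gene symbols in the deposited tables. All 10 were found, each at 1 locus, and all 10 were among the 13306 genes tested, which had to reach 1 FPKM (fragments per kilobase, relative to all mapped fragments of a library) in at least 3 libraries. The 9 libraries comprised 3 from Blinc1-/- embryos (KO), 3 from Blinc1+/- embryos (Het) and 3 from Blinc1+/+ embryos (WT). Blinc1 is a long noncoding RNA gene, and the background of every group was mixed, from C57BL/6 and 129Sv. How the Blinc1 allele was made is not given in the sources used here, and nothing in the labels says whether a library came from 1 embryo or a pool, so p-values measure the spread between these libraries.

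In the unfolded protein response, 3 sensors in the ER membrane detect unfolded proteins. IRE1 splices the Xbp1 transcript into the form that encodes an active transcription factor, PERK slows translation while favouring that of Atf4, and ATF6 is cleaved in the Golgi into a transcription factor. Their shared outputs are chaperones, disulfide isomerases and the machinery that returns misfolded proteins to the cytosol for degradation. Acinar cells of the exocrine pancreas make digestive enzymes in bulk and depend on Xbp1 for their secretory ER, which is why the levels were also set against Cpa1, the gene of the acinar enzyme carboxypeptidase A1. Whole tissue was sequenced, so more acinar cells and more RNA per acinar cell cannot be told apart.

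The upstream sequences of the members were read first, because the pathway acts through known response elements in promoters. The 250 bases before each RefSeq transcription start (build GRCm38.p6) were searched on both strands for 4 motifs. These were the ER stress response element ERSE (CCAAT, any 9 bases, CCACG), its variant ERSE-II (ATTGG, any 1 base, CCACG), the XBP1-binding core (TGACGTGG) and the C/EBP-ATF element bound by ATF4 (TGATGNAA). ERSE stood in the windows of 3 members (Hspa5, Hsp90b1 and Creld2), against 0.113% of 32851 such windows over all genes. ERSE-II stood in Herpud1 alone among the 10, against 0.0304% of all windows, and the C/EBP-ATF element also stood in Herpud1 alone, against 3.45%. The XBP1-binding core stood in 0 of the 10, against 0.563%. These are matches of letters, and a window without a match says only that these exact letters are not in it. The motifs were taken because they are known elements of this pathway, so the shares are not an independent test of the members. The stretches that hold the matches, with 20 bases either side, are shown 5′ to 3′ on the gene's strand with the motifs in capitals. They are chr2:34772005-34772063 (plus strand, Hspa5), chr10:86705513-86705676 (minus strand, Hsp90b1), chr15:88819500-88819558 (plus strand, Creld2) and chr8:94386297-94386407 (plus strand, Herpud1).
Hspa5: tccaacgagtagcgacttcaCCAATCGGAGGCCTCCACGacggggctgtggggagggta
Hsp90b1: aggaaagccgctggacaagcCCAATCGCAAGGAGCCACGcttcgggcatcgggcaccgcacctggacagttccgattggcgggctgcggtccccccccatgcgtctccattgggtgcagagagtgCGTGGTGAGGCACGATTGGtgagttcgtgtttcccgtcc
Creld2: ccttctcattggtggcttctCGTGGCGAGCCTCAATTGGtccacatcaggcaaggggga
Herpud1: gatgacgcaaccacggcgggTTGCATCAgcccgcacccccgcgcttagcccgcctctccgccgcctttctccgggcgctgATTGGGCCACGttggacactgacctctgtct
The ERSE of Hspa5 lay 65 to 47 bases before the start and read in the direction of the gene. Hsp90b1 held an ERSE in each direction, at 212 to 194 and 107 to 89 bases before the start, and Creld2 held its ERSE in the opposite direction at 126 to 108 bases. In Herpud1 the C/EBP-ATF element lay at 112 to 105 bases, in the opposite direction, and the ERSE-II at 52 to 42 bases.

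The depth implied by the deposited confidence bounds was 19532984 to 25437255 fragments per library, and the members rested on 121 (Ddit3) to 56510 (Hspa5) fragments. Blinc1 was not analysed here under that name, so the genotype labels were not checked by the targeted gene. Nkx2-2, a homeodomain factor gene of the islet lineage, was at 24.9, 6.08 and 5.48 FPKM in KO replicates 1 to 3. In Het replicates 1 to 3 it was at 6.37, 19 and 13.4 FPKM, against 15.2, 21.7 and 25.5 FPKM in WT. Low levels were thus not confined to KO, and KO replicate 1 was within the WT range. By Xist and 2 Y-linked genes, all 3 KO libraries, Het replicate 3 and WT replicate 3 were female and the other 4 libraries male. Sex and genotype thus cannot be told apart within KO. The labelled tissue was checked by acinar markers. Cpa1 was at 7457 to 11632 FPKM, Clps, the colipase gene, at 12218 to 23337 FPKM, and none of the 24 acinar markers summed was at 0 in any library.

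The transcription factor genes of the pathway were led by Xbp1 (mm9 chromosome 11, 5420970 to 5425875), the target of IRE1. Xbp1 was at 415, 482 and 469.7 FPKM in KO libraries and at 427, 420.2 and 407 FPKM in Het libraries, against 388, 365 and 442 FPKM in WT libraries. KO replicates 2 and 3 lay above every other library, but KO replicate 1 fell between the WT values, so the groups overlapped. The means were 455 ± 35.9 in KO, 418 ± 9.95 in Het and 398 ± 39.5 in WT (SD, n = 3 each), and the KO minus WT difference was 0.19 on the log2(FPKM + 1) scale (SE 0.08), which did not pass the test over all genes (limma, Benjamini-Hochberg adjusted p = 0.58). It is 1.14-fold in size. Gene-level FPKM does not separate spliced from unspliced Xbp1, so IRE1 activity was not measured.

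Atf4 (chromosome 15, 80085614 to 80087971), the main transcription factor of the PERK arm, was the steadiest member. It was at 123, 132 and 127 FPKM in KO and at 121, 129.6 and 128 FPKM in Het, against 124, 129 and 119 FPKM in WT. All 9 libraries lay within 1.11-fold of each other, and the KO minus WT difference was 0.04 (SE 0.05, limma adjusted p = 0.82). Atf4 is controlled largely at the level of translation, which these values do not show.

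Ddit3 (chromosome 10, 126727849 to 126733344), which encodes the stress-induced factor CHOP, was the lowest member and the only one with a lower mean in KO than in WT. It was at 11, 8.94 and 9.08 FPKM in KO and at 9.54, 7.22 and 10.4 FPKM in Het, against 11.2, 12 and 8.1 FPKM in WT. The 3 groups overlapped and each was spread widely. The KO minus WT difference was -0.09 (SE 0.16, limma adjusted p = 0.85) and 0.01 without WT replicate 2. Its coefficient of variation over the 9 libraries was 16.1%, of which counting error alone would give 8.18%.

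Among the ER chaperones, Hspa5 (chromosome 2, 34627610 to 34632049) encodes BiP, the ER member of the HSP70 family that also holds the sensors inactive. It was the member with the highest level, at 819, 926 and 787 FPKM in KO and 772, 837 and 762 FPKM in Het, against 808, 768 and 817 FPKM in WT. Only KO replicate 2 stood away from the other 8 libraries, 1.11-fold above the next. On the log2 scale KO minus WT was 0.08 (SE 0.07, limma adjusted p = 0.71).

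Hsp90b1 (chromosome 10, 86153586 to 86168189), the gene of the ER paralogue of HSP90 known as GRP94, was at 682, 711 and 648 FPKM in KO and 632, 663 and 671 FPKM in Het, against 668, 633 and 646 FPKM in WT. Its largest and smallest values differed by 1.12-fold. KO exceeded WT by 0.07 (SE 0.06, limma adjusted p = 0.68), and the groups overlapped.

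Dnajb9 (chromosome 12, 45306884 to 45311055) encodes ERdj4, a J-domain partner of BiP. It was at 29.4, 39.4 and 30.2 FPKM in KO and 29.3, 32 and 30.7 FPKM in Het, against 34.2, 29.7 and 30.4 FPKM in WT. KO replicate 2 was again alone at the top, 1.15-fold above WT replicate 1, while the other 2 KO libraries were below WT replicate 3. The KO minus WT difference of 0.06 (SE 0.11, limma adjusted p = 0.85) became -0.07 without KO replicate 2.

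Sdf2l1 (chromosome 16, 17130231 to 17132476), whose product works in the ER with the J-domain protein ERdj3, was at 250.0, 282 and 249.9 FPKM in KO and 251, 263 and 265 FPKM in Het, against 223, 251 and 266 FPKM in WT. The low value of WT replicate 1 and the high value of KO replicate 2 were its extremes. The KO minus WT difference was 0.08 (SE 0.07, limma adjusted p = 0.71).

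Creld2 (chromosome 15, 88650076 to 88657111), which encodes a secreted ER stress-inducible protein, was at 148, 167 and 137 FPKM in KO and 148, 142 and 139.8 FPKM in Het, against 132, 135 and 149 FPKM in WT. KO replicate 2 was 1.12-fold above the next library, and KO replicate 3 was lower than WT replicate 3. On the log2 scale KO minus WT was 0.12 (SE 0.08, limma adjusted p = 0.61).

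Pdia4 (chromosome 6, 47746140 to 47763511), the gene of the disulfide isomerase ERp72, was at 223, 230.0 and 199 FPKM in KO and 192, 201 and 210.4 FPKM in Het, against 202, 198 and 206 FPKM in WT. KO replicates 1 and 2 were above all other libraries, and KO replicate 3 was within the WT range. For KO minus WT the difference was 0.10 (SE 0.06, limma adjusted p = 0.61).

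Herpud1 (chromosome 8, 96910400 to 96919258) encodes HERP, a membrane protein of ER-associated degradation. It was at 125, 162 and 139 FPKM in KO and 123, 128 and 127 FPKM in Het, against 127, 119 and 124 FPKM in WT. KO replicates 2 and 3 were the 2 highest libraries, and KO replicate 1 was within the WT range. The means were 142 ± 18.6 in KO, 126 ± 2.76 in Het and 123 ± 3.73 in WT (SD, n = 3 each), and the spread within KO was wider than the distance between KO and Het. The KO minus WT difference was 0.19 (SE 0.08, limma adjusted p = 0.58), and it was 0.10 without KO replicate 2.

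**Figure D1:**
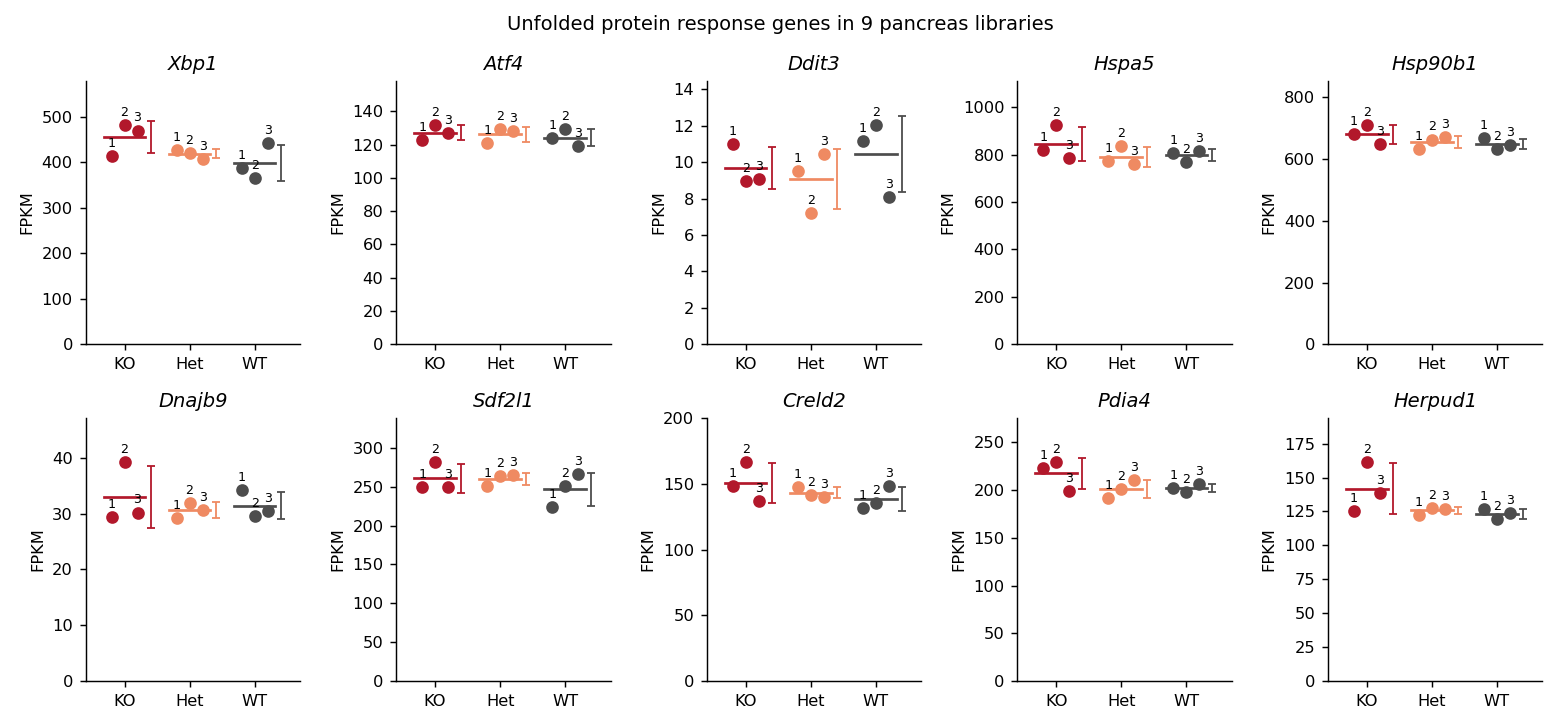
FPKM of the 10 genes in each library, with KO, Het and WT from left to right; numbers are replicate numbers, horizontal lines are group means and bars are SD (n = 3 each). KO replicate 2 is the highest library in 9 panels, and every pair of groups overlaps in all panels.

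As a set, the members called between KO and WT numbered 0 of 10, against a background of 0% of 13306 genes (limma adjusted p under 0.05). At an unadjusted limma p under 0.05, Xbp1 and Herpud1 had higher levels in KO and 0 members lower ones, where 8.39% of all genes reached that level in either direction and 2.6% did as higher. Of genes with a mean of 100 FPKM or more, 5.46% did as higher. With sex as a covariate 558 genes in place of 1117 reached that level, and the difference was 0.14 for Xbp1 and 0.01 for Sdf2l1. The log2 difference was positive for 9 of 10 members with a median of 0.08, against 41.5% of all genes with a median of -0.03, and against 66.6% and a median of 0.04 for the 897 genes with a mean of 100 FPKM or more, the range that holds 8 of the members. In 0 of 10 members did every KO library lie above every WT library, which 4.55% of all genes showed, and in 0 of 10 did every one lie below, which 6.64% showed. Without KO replicate 2 the difference was positive for 8 of 10 members with a median of 0.03, against 49.1% of all genes. It was then 0.15 for Xbp1, 0.10 for Herpud1, 0.06 for Pdia4, 0.04 for Creld2, 0.03 for Hsp90b1, 0.02 for Sdf2l1, 0.01 for Hspa5 and Atf4, -0.04 for Ddit3 and -0.07 for Dnajb9, and neither Xbp1 nor Herpud1 was under an unadjusted p of 0.05.

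Het against WT is the comparison that asks about loss of a single allele. It called 0 of 10 members, against 0% of all genes (limma, 522 genes or 3.92% at an unadjusted p under 0.05). The log2 differences ran from -0.18 (Ddit3, SE 0.16) to 0.08 (Sdf2l1, SE 0.07), with 6 of 10 positive against 42.9% of all genes and 67.1% of genes with a mean of 100 FPKM or more. Every member had a limma adjusted p of 0.94 or more there. All Het libraries lay above all WT libraries in 0 of 10 members, against 3.54% of all genes, and below them in 0 of 10, against 7.05%. KO against Het called 0 of 10 as well, against 0% of all genes (296 genes or 2.22% at an unadjusted p under 0.05), with differences of 0.00 (Sdf2l1) to 0.16 (Herpud1, SE 0.08), all 10 positive against 44.7% of all genes and 53.5% of genes with a mean of 100 FPKM or more. Without KO replicate 2, 6 of 10 were positive, and the median over the members was 0.02 in place of 0.09. The share of all genes was not computed for KO against Het without that library. All KO libraries lay above all Het libraries in 0 of 10 members, against 3.48% of all genes, and below them in 0 of 10, against 2.43%. KO libraries enter 2 of these comparisons and WT libraries enter 2, so they are not independent of each other.

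**Figure D2:**
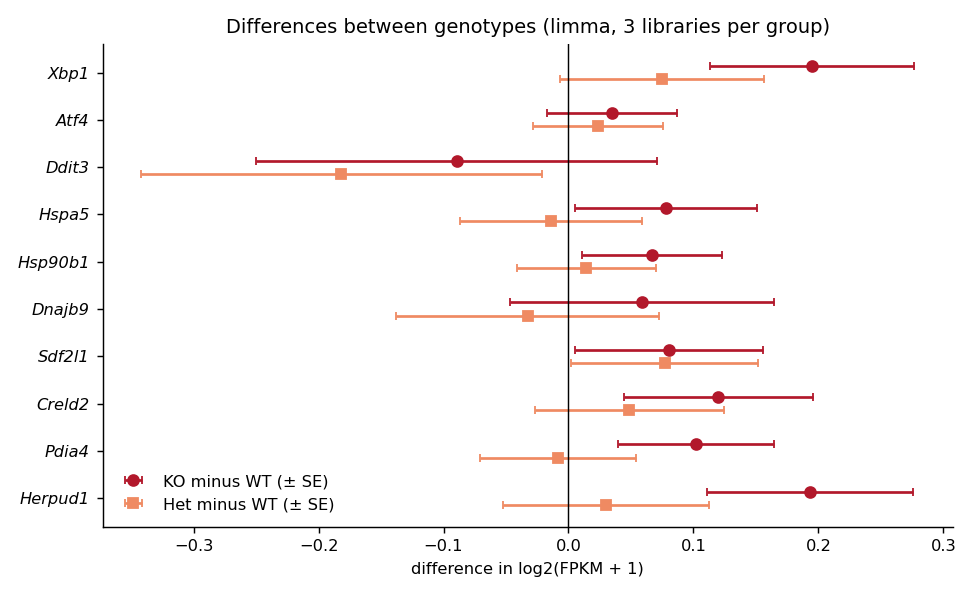
Difference in log2(FPKM + 1) for each gene, KO minus WT (circles) and Het minus WT (squares), with limma standard errors from 3 libraries per group. Xbp1 and Herpud1 have the largest KO differences, at 0.19 each, and Ddit3 lies below 0 in both comparisons.

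The level of each gene was next compared with that of Cpa1 across the 9 libraries. Cpa1 was at 7457, 11632 and 9157 FPKM in KO and 9462, 9947 and 9155 FPKM in Het, against 8604, 8226 and 7898 FPKM in WT. The highest and the lowest Cpa1 values of the series were therefore both KO libraries, replicates 2 and 1. Correlations were computed on log2(FPKM + 1), with exact two-sided permutation tests over all pairings of the 9 libraries and Benjamini-Hochberg adjustment over the other 13305 genes tested. In all, 29 relations of members were computed, 10 with Cpa1, 9 with Hspa5 and 10 with Ins2.

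The member closest to Cpa1 was Herpud1 (Pearson r = 0.76, exact permutation p = 0.022, adjusted p = 0.22; Spearman rho = 0.62, exact permutation p = 0.086, adjusted p = 0.40). Dnajb9 followed with r = 0.72 (exact permutation p = 0.035, adjusted p = 0.24) and rho = 0.43 (exact permutation p = 0.25, adjusted p = 0.57). Atf4 had r = 0.64 (exact permutation p = 0.062, adjusted p = 0.28) and rho = 0.60 (exact permutation p = 0.097, adjusted p = 0.42). Herpud1 and Dnajb9 were the 2 of 10 with a positive r at an unadjusted p under 0.05, against 3.51% of all genes. With 9 libraries, against Cpa1, Hspa5 or Ins2 alike, a lone gene can pass adjustment only at the smallest possible exact permutation p, 2.76e-06 (adjusted p = 0.0367). A member that does not pass is therefore weak evidence of no relation. None of the 10 passed after adjustment, where 1 gene of 13305 did (0.00752%). That gene, named after its value was seen, was Adprh, which encodes an ADP-ribosylarginine hydrolase and was lower where Cpa1 was higher (r = -0.97, exact permutation adjusted p = 0.037). With median-ratio scaling 0 genes passed, so the call of Adprh was lost.

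Xbp1 had r = 0.54 with Cpa1 (exact permutation p = 0.14, adjusted p = 0.39) and rho = 0.50 (exact permutation p = 0.18, adjusted p = 0.50). Hspa5 had r = 0.55 (exact permutation p = 0.13, adjusted p = 0.38) and rho = 0.25 (exact permutation p = 0.52, adjusted p = 0.76). Sdf2l1, Creld2, Hsp90b1 and Pdia4 had r of 0.50, 0.49, 0.43 and 0.18, with rho of 0.35, 0.15, 0.10 and -0.10 and exact permutation p of 0.16 to 0.65 for r and 0.36 to 0.81 for rho (adjusted p of 0.42 to 0.92). Ddit3 was alone in a negative r, at -0.44 (exact permutation p = 0.24, adjusted p = 0.51; rho = -0.52, exact permutation p = 0.16, adjusted p = 0.49). A positive r was thus found for 9 of 10 members, against 35% of all genes and 61.8% of the genes with a mean of 100 FPKM or more.

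These relations rested largely on KO replicate 2. Without it r was 0.45 for Atf4, 0.36 for Herpud1, 0.25 for Dnajb9, 0.22 for Xbp1 and 0.14 for Sdf2l1 (exact permutation p of 0.26 to 0.76, n = 8). In the same 8 libraries r was -0.16 for Hspa5, -0.64 for Pdia4, -0.20 for Hsp90b1 and -0.21 for Creld2 (exact permutation p of 0.082 to 0.70), so that 5 of 10 members kept a positive r. The share of all genes with a positive r in those libraries was not computed. KO replicates 2 and 1 were the libraries farthest from the median Cpa1 level, and without both of them r was 0.39 for Herpud1, 0.05 for Dnajb9, 0.40 for Atf4, 0.27 for Xbp1 and 0.08 for Hspa5 (exact permutation p of 0.36 to 0.91, n = 7). With median-ratio scaling of all 9 libraries r was higher, at 0.45 for Pdia4 and 0.69 for Hsp90b1, and 0 members passed. With the genotype means subtracted, r was 0.95 for Herpud1 and 0.87 for Dnajb9, and with permutations within genotypes the exact p was 0.088 and 0.023. Both values still include KO replicate 2.

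**Figure D3:**
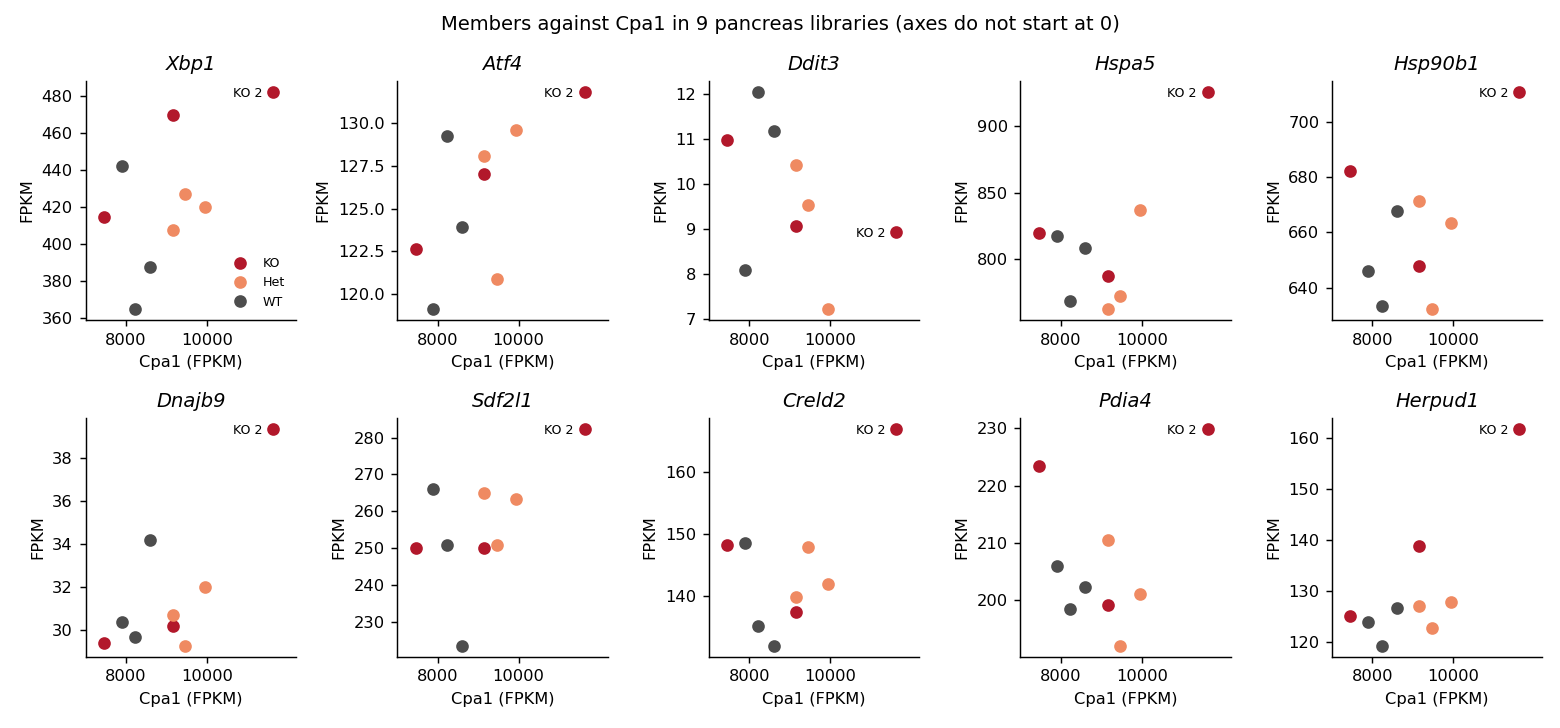
FPKM of each gene (vertical) against FPKM of Cpa1 (horizontal) in the 9 libraries, coloured by group, with KO replicate 2 marked; axes do not start at 0. In 9 panels the marked library lies at the top right, at 11632 FPKM of Cpa1; the exception is Ddit3.

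Ins2, an insulin gene of beta cells, was used in the same way because those cells are the other bulk secretors of the tissue. It was at 2524, 1390.1 and 1191 FPKM in KO and 1463, 2514 and 2276 FPKM in Het, against 2049.8, 3007 and 2918 FPKM in WT. A positive r with Ins2 was found for 1 of 10 members (Ddit3), against 56.9% of all genes, but for 8 of 10 without KO replicate 2. At an unadjusted p under 0.05, 2 of 10 had a negative r, against 5.3% of all genes, and 0 of 10 without KO replicate 2. Shares of all genes were not computed without that library. The most negative were Xbp1 at -0.68 (exact permutation p = 0.047, adjusted p = 0.40; rho = -0.58, exact permutation p = 0.11, adjusted p = 0.50) and Herpud1 at -0.66 (exact permutation p = 0.034, adjusted p = 0.37; rho = -0.67, exact permutation p = 0.059, adjusted p = 0.44). Without KO replicates 3 and 2, the libraries farthest from the median Ins2 level, r was -0.23 for Xbp1 and -0.16 for Herpud1 (exact permutation p = 0.60 and 0.72, n = 7). After adjustment 0 members passed, and 1 gene of 13305 did (0.00752%), the other insulin gene Ins1.

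The members were also compared with one another through Hspa5. Those with the highest r were Dnajb9 at 0.83 (exact permutation p = 0.02, adjusted p = 0.33; rho = 0.45, exact permutation p = 0.23, adjusted p = 0.72), Herpud1 at 0.78 (exact permutation p = 0.044, adjusted p = 0.35; rho = 0.48, exact permutation p = 0.19, adjusted p = 0.70) and Hsp90b1 at 0.77 (exact permutation p = 0.015, adjusted p = 0.32; rho = 0.50, exact permutation p = 0.18, adjusted p = 0.69). Without KO replicate 2 and Het replicate 3, the libraries farthest from the median Hspa5 level, r was 0.78 for Hsp90b1 (exact permutation p = 0.051, n = 7), 0.46 for Dnajb9 and 0.19 for Herpud1 (exact permutation p = 0.30 and 0.73). Without KO replicate 2 alone, r was 0.45 for Hsp90b1, 0.39 for Dnajb9 and 0.13 for Herpud1 (exact permutation p = 0.26, 0.35 and 0.79, n = 8). Ddit3 had a negative r with Hspa5, -0.43 (exact permutation p = 0.25, adjusted p = 0.56). The r with Hspa5 was positive for 8 of 9 members, against 39.9% of all genes and 58.8% of those with a mean of 100 FPKM or more. At an unadjusted p under 0.05, 5 of 9 had a positive r, against 3.92% of all genes, and 0 of 9 without KO replicate 2, where 6 of 9 had an r above 0. For these counts without KO replicate 2 no share of all genes was computed. After adjustment 0 of 13305 genes passed (0%).

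Genes outside the set with the most similar pattern were sought among 7192 genes with a mean of 10 FPKM or more, by Pearson r over the 9 libraries. The 3 closest to Hspa5 were Hyou1 (r = 0.94), which encodes the ER chaperone GRP170, Manf (r = 0.94), which encodes a secreted ER stress-inducible factor, and Mpzl2 (r = 0.93), an adhesion protein gene. Hyou1, Manf and Mpzl2 all peaked in KO replicate 2, at 113, 222 and 25.4 FPKM, where the next highest values were 101, 193 and 16.2 FPKM. Their r without that library was not computed. Hyou1 and Manf belong to the chaperone list described next. The 3 closest to Xbp1 were Mrfap1 (r = 0.98), Mccc2 (r = 0.97), which encodes a subunit of the mitochondrial methylcrotonyl-CoA carboxylase, and Bzw2 (r = 0.97), a translation regulator gene. Mrfap1 was at 425, 452 and 449 FPKM in KO and 432, 429 and 424 FPKM in Het, against 406, 398 and 444 FPKM in WT, which is the order of libraries seen at Xbp1, with WT replicate 2 lowest and KO replicate 2 highest.

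Other genes of the pathway were taken from 7 lists by role, 98 genes of which 94 were tested. Of these, 0 passed between KO and WT (limma, background 0%), 7 (7.45%) were higher in KO at an unadjusted p under 0.05 and 0 were lower, where 2.6% of all genes and 5.46% of genes with a mean of 100 FPKM or more were higher. The difference was positive for 75 of 94 (79.8%) with a median of 0.06, against 41.5% of all genes and 66.6% of genes with a mean of 100 FPKM or more. Without KO replicate 2 it was positive for 70 of 94 (74.5%) with a median of 0.03, against 49.1% of all genes. The share of genes with a mean of 100 FPKM or more was not computed without that library. Every KO library lay above every WT library for 15 of 94, which is 16% against 4.55% of all genes and 6.47% of genes with a mean of 100 FPKM or more.

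Counts by list differed, and no difference between lists was tested. The sensor list also held the processing proteases, Atf6b and the CREB3 family genes Creb3, Creb3l1 and Creb3l2. Of its 9 tested genes 4 had a positive difference and 5 a negative one, with a median of -0.02. The genes of the sensors themselves were positive, at 0.04 for Ern1 (IRE1, SE 0.09), 0.12 for Eif2ak3 (PERK) and 0.06 for Atf6 (SE 0.07). For Ern1, KO replicates 1 and 3 lay within the WT range, at 5.92 and 5.49 FPKM against 5.43 to 6.49 FPKM. The same held for Atf6, at 15.6 and 15.3 FPKM against 14.7 to 15.8 FPKM. The positive differences of Ern1 and Atf6 thus rested largely on KO replicate 2. Eif2ak3, the gene of PERK, was at 19.4, 23.2 and 21.4 FPKM in KO, against 20.7, 19.5 and 18.5 FPKM in WT (0.12, SE 0.07, limma adjusted p = 0.61), and Mbtps1, the gene of the protease that cleaves ATF6, was at 70.9, 67.5 and 69.2 FPKM in KO, against 72.4, 69.1 and 73 FPKM in WT. In the PERK arm 7 of 14 were positive with a median of 0.02. There Nupr1, a stress-responsive gene of acinar cells, was at 775, 954 and 1002 FPKM in KO, against 809, 837 and 860.1 FPKM in WT (0.12, SE 0.10, limma adjusted p = 0.69). Atf5, a factor gene of the same arm, was at 24.1, 19 and 22.4 FPKM in KO, against 26.5, 26.5 and 22.8 FPKM in WT (-0.20, SE 0.10, limma adjusted p = 0.58).

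The protein-handling lists had mostly positive differences. Without KO replicate 2 the positive counts and medians were 15 of 16 and 0.03 for ER-associated degradation, 14 of 17 and 0.04 for translocation, 11 of 12 and 0.04 for oxidoreductases, 8 of 13 and 0.05 for chaperones and 10 of 13 and 0.02 for transport. Of all genes 49.1% were positive then, with a median of -0.003. With all 9 libraries the counts were as follows. All 16 genes of ER-associated degradation were positive (median 0.06), among them the ubiquitin-conjugating enzyme gene Ube2j1, at 26.3, 27.4 and 26.8 FPKM in KO, against 25.5, 25 and 25.4 FPKM in WT (0.08, SE 0.04, limma adjusted p = 0.58). Edem2, which acts on misfolded glycoproteins, had the highest level of that list, at 304, 304 and 320.0 FPKM in KO, against 289, 305 and 319.8 FPKM in WT (0.02, SE 0.08). Of the translocation genes 16 of 17 were positive (median 0.09), and Sec61a1, the gene of the channel's main subunit, was at 277, 296 and 289 FPKM in KO, against 259, 263 and 266 FPKM in WT (0.13, SE 0.05, limma adjusted p = 0.58). KO and WT did not overlap at Ube2j1 or Sec61a1, which were named for the smallest p of their lists. Every KO library lay above every WT library for 3 of 16 and 4 of 17 genes of these lists, against 4.55% of all genes. Ssr2, of the translocon-associated complex, had the highest level of its list at 752, 768 and 766 FPKM in KO, against 685, 759 and 763 FPKM in WT.

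Of the oxidoreductases 11 of 12 were positive (median 0.09). Pdia5, a disulfide isomerase gene, was at 59.4, 62.6 and 61.1 FPKM in KO, against 54.5, 55.5 and 56.7 FPKM in WT (0.13, SE 0.05, limma adjusted p = 0.58), without overlap. It was named, like Dnajc10 and Preb below, for the smallest p of its list. Every KO library lay above every WT library for 4 of 12 genes of that list, against 4.55% of all genes. P4hb, the gene of the main disulfide isomerase, was at 1252, 1351 and 1240.2 FPKM in KO, against 1202, 1175 and 1247 FPKM in WT (0.08, SE 0.07). Of the further chaperones 10 of 13 were positive (median 0.07), and the peptidyl-prolyl isomerase gene Ppib had the highest level, at 1739, 2034 and 1899 FPKM in KO, against 1668, 1738 and 1836 FPKM in WT. Dnajc10, whose product is a disulfide reductase of degradation substrates, went the other way, at 55.1, 49.9 and 48.7 FPKM in KO, against 56.9, 56.5 and 54.9 FPKM in WT (-0.13, SE 0.06, limma adjusted p = 0.58). Of the genes of transport between ER and Golgi 11 of 13 were positive (median 0.04). Among them Preb, the exchange factor gene for the coat GTPase SAR1, was at 34.1, 35.3 and 34.9 FPKM in KO, against 30.2, 32.4 and 30.2 FPKM in WT (0.17, SE 0.06, limma adjusted p = 0.58), and Tmed2, a cargo receptor gene, was at 320.2, 386 and 339.9 FPKM in KO, against 316, 318 and 322 FPKM in WT.

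**Figure D4:**
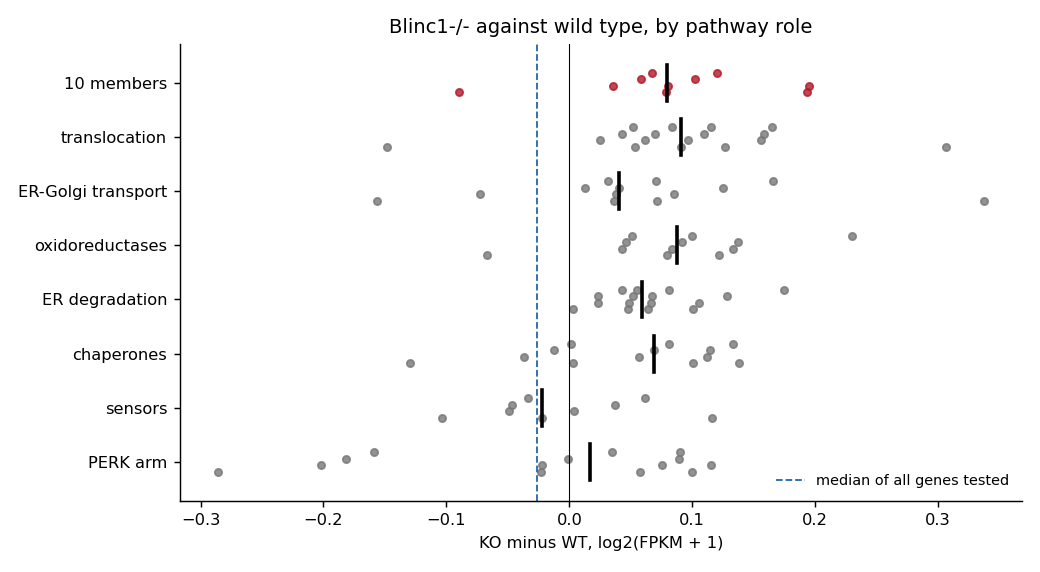
KO minus WT difference in log2(FPKM + 1) for each tested gene of the pathway, by role; each point is a gene, black bars are list medians and the dashed line is the median of all 13306 genes (-0.03). The medians of the protein-handling lists lie at 0.04 to 0.09. Those of the sensor list, which also holds proteases and CREB3 family genes, and of the PERK arm lie at -0.02 and 0.02.

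The library that set the upper end of most of these genes was KO replicate 2, which was picked out after the values were seen. It was the highest of the 9 libraries for 9 of 10 members, all but Ddit3, whereas 10.4% of all genes tested and 23.9% of genes with a mean of 100 FPKM or more had their highest value there. The same held for 14 of 17 translocation genes, 9 of 13 transport genes, 8 of 12 oxidoreductases, 10 of 16 degradation genes and 8 of 13 chaperones. It held for 2 of 9 genes of the sensor list and 1 of 14 genes of the PERK arm. Those 2 were Ern1 and Eif2ak3, which encode sensors themselves. Atf6, the gene of the third sensor, was at 17.30 FPKM in KO replicate 2, close to its highest value, 17.35 FPKM in Het replicate 2. With the libraries rescaled by median ratios, an alternative added after seeing the data, the counts were 9 of 10 members and 20.8% of all genes.

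Markers of cell types moved in that library as well. The 24 acinar markers summed to 59597 FPKM in KO replicate 2 and to 35884 and 47160 FPKM in the other KO libraries and 40970 to 49787 FPKM in Het, against 38209 to 41563 FPKM in WT. In KO replicate 2 Clps gave 23337 and Cpa1 11632 FPKM of that sum. Between the group means of KO and WT, 17 of the 24 had a positive log2 difference and 7 a negative one. The 12 mesenchyme markers summed to 1473 FPKM in KO replicate 2, the lowest of the series, and to 1640.3 to 2123 FPKM in the other KO libraries and 1664 to 1977 FPKM in Het, against 1849.9 to 2501 FPKM in WT. Its 8 endothelial and 8 immune markers, at 173 and 220.4 FPKM, were also the lowest of the series. The 11 heat shock and immediate early genes summed to 844 FPKM in KO replicate 2, the highest of the series, where the other 8 libraries ran from 743 to 834 FPKM. Hspa8 alone gave 582 FPKM of that sum, so the sum mostly follows 1 gene. Between the group means of KO and WT, 5 of the 11 had a positive log2 difference and 6 a negative one. The 8 erythroid markers summed to 7028 FPKM in KO replicate 2, also the highest, and to 5058 and 6108 FPKM in the other KO libraries and 2583 to 5452 FPKM in Het, against 4767 to 6973 FPKM in WT. The 12 beta cell markers summed to 1802 to 3683 FPKM in KO (2019 FPKM in KO replicate 2) and 2127 to 3682 FPKM in Het, against 2949.8 to 4344 FPKM in WT. The alpha and delta cell, endocrine progenitor and duct markers summed to 1734, 164.7 and 537 FPKM in KO replicate 2. Each of these sums lay within the range of the other libraries. None of these markers was at 0 in any library, and their part in the levels of the members was not tested.

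**Figure D5:**
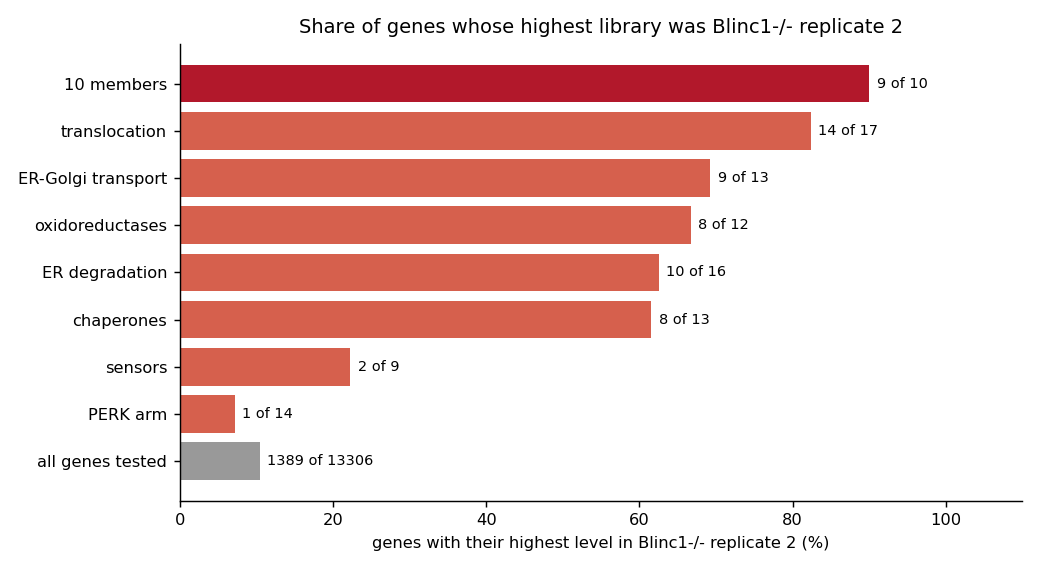
Share of genes (%) with their highest FPKM of the 9 libraries in KO replicate 2, for the 10 members, the 7 pathway lists and all genes tested; counts stand beside the bars. The bar of the members reaches 9 of 10, those of the protein-handling lists 8 of 13 to 14 of 17. Those of the sensor list, which also holds proteases and CREB3 family genes, and of the PERK arm reach 2 of 9 and 1 of 14. The 2 of the sensor list are the sensor genes Ern1 and Eif2ak3.

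The members also differed in how much they varied among the libraries. The coefficient of variation over the 9 libraries was 3.47% for Atf4, 3.81% for Hsp90b1, 5.99% for Pdia4, 6.21% for Hspa5, 6.36% for Sdf2l1, 7.26% for Creld2, 8.73% for Xbp1, 9.93% for Herpud1 and 10.3% for Dnajb9. Counting alone would give 0.48% for Hspa5 and at most 2.87% (Dnajb9) among these 9. The median over the 10 members was 6.81%, against 8.8% for all genes tested and 5.69% for the 897 genes with a mean of 100 FPKM or more. In their own order, the mean levels over 9 libraries were 811 FPKM for Hspa5, 662 for Hsp90b1, 424 for Xbp1, 256 for Sdf2l1, 207 for Pdia4, 144 for Creld2, 130.3 for Herpud1, 126 for Atf4, 31.7 for Dnajb9 and 9.72 for Ddit3. The ranges over libraries overlapped between Sdf2l1 and Pdia4, between Creld2 and Herpud1 and between Herpud1 and Atf4, and those of the other neighbours in this order did not.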

How the data were processed

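Total RNA of whole embryonic pancreas was sequenced after TruSeq library preparation, in 3 Blinc1-/-, 3 Blinc1+/- and 3 Blinc1+/+ libraries. Per the series' design text, TopHat 2.0.4 aligned the reads to mm9 with 4 mismatches and 10 multiple hits as limits. The submitters' processing notes also name CASAVA 1.8.2, Cufflinks and DESeq. The authors deposited FPKM with confidence bounds and a status per gene, per the file headers. Annotation and strand use: not given in the sources used here. FPKM is a share of each library, so a change in abundant acinar genes shifts all others; median-ratio scaling was therefore tried.

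FPKM of symbols with several loci were summed, and 4 symbols with an estimate failed for excess data (Amy2a2, Amy2a5, Ctrb1 and Pnliprp1) were removed. All 90 member values had the status OK. Fragment numbers were implied from the confidence bounds, taken as 2 counting errors. limma 3.58.1 in R 4.3.3 was fitted to log2(FPKM + 1) with an intensity trend, all 9 libraries and genotype as the only term, two-sided, on genes with 1 FPKM in at least 3 libraries; the threshold was an adjusted p of 0.05. A permutation of 3 libraries against 3 cannot go below 0.1. Correlations used numpy 2.4.6 and every pairing. The limma and correlation steps were tested on simulated data. Positions are 1-based on mm9; promoter windows are GRCm38.p6. Named beside the members were, per list, the gene of highest level and that of smallest p, and the 3 genes most like Xbp1 and Hspa5. Members and lists were chosen with earlier results of these data known.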

Additional observations from a re-analysis of the deposited data

How the results depend on the processing

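No member was called between any 2 genotypes under any alternative run, and over 18 alternatives the members' smallest adjusted p between KO and WT (limma) was 0.11. The sign of the KO minus WT difference held in 178 of 180 values; it became 0.0138 for Ddit3 without WT replicate 2 (lowest -0.246 without another library) and -0.0711 for Dnajb9 without KO replicate 2 (highest 0.133 without another). Over all genes, fits of only the 2 groups compared called 1 gene for KO against WT and 6 for Het against WT. Without 1 library, the limma calls ranged from 0 to 1 for KO against WT, 0 to 7 for Het against WT and 0 to 4 for KO against Het. The count at an unadjusted p under 0.05 for KO against WT was 399 to 2628 without 1 library, 2628 without KO replicate 1. The replicate block called 1 gene for Het against WT and 0 for the other comparisons. Same-numbered libraries had correlated deviations of -0.19 to 0.29, and those of KO with Het were all positive (0.29, 0.275 and 0.0468). These values had no reference to be set against, so they do not settle whether the numbers mark a pairing. Genes called against Cpa1 were 0 with genotype means subtracted, with median-ratio scaling or without any 1 library. With subtracted means (216 pairings) or 8 libraries (40320 pairings), a lone gene cannot go below an adjusted p of 1 or 0.33, so the absence of calls there says nothing about stability. Against Hspa5 median-ratio scaling gave 3. Against Ins2 the linear scale gave 4, median-ratio scaling 3, subtracted genotype means 0, and leaving out any 1 library 0. Without 1 library, r with Cpa1 ranged from -0.16 to 0.70 for Hspa5, -0.64 to 0.60 for Pdia4, -0.20 to 0.73 for Hsp90b1 and -0.21 to 0.68 for Creld2, and r with Hspa5 from -0.20 to 0.48 for Atf4 and -0.0183 to 0.748 for Sdf2l1, each lowest without KO replicate 2. The cause was not tested. With sex as a covariate 9 of 10 members still had a positive KO minus WT difference. Depth limits Ddit3 most, at 121 to 192 fragments per library.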
